A study of Rattus norvegicus with 6 samples.

Results

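The genes described here make prostaglandins, thromboxane and leukotrienes, the lipid mediators that cells form from arachidonic acid. The set was fixed by name and holds 10 genes, Ptgs1, Ptgs2, Ptges, Ptgis, Tbxas1, Alox5, Alox5ap, Alox15, Lta4h and Ltc4s, of which 9 were found by symbol among the 22250 genes of the deposited table. Ptgis, which encodes prostacyclin synthase, was not analysed here. RNA-Seq had been run on left ventricular myocardium of 3 young donors (animals 3, 13 and 15) and of 3 aged donors (animals 3, 4 and 7), collected on day 1 after heterotopic transplantation. Donors were Sprague-Dawley rats, aged 10 weeks in the young group and 1 year in the aged group. All were wild type, so the library names WT and OT separate donor ages and not genotypes. Every heart had been stored cold and transplanted into a young recipient, and no heart without transplantation was among the libraries, so the comparison concerns donor age after storage and transplantation. RNA of recipient cells in the graft was not separated from donor RNA, and in bulk tissue fewer cells of a type and less RNA per cell cannot be told apart.

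Arachidonic acid is cut from membrane phospholipids and then enters separate enzyme routes. In the cyclooxygenase route, Ptgs1 or Ptgs2 forms prostaglandin H, which terminal synthases turn into prostaglandin E (Ptges), prostacyclin (Ptgis) or thromboxane (Tbxas1). In the lipoxygenase route, Alox5 works with its membrane partner Alox5ap to form leukotriene A, which Lta4h turns into the neutrophil attractant leukotriene B and Ltc4s joins to glutathione to give the cysteinyl leukotrienes. Alox15 oxidises arachidonic acid at another position and can act on lipids still within membranes. In the heart, constitutive cyclooxygenase and prostacyclin are largely products of vessel and stromal cells. Thromboxane synthase, Alox5, Alox5ap and Ltc4s are known mainly from platelets and myeloid leukocytes.

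Of the 9 genes, 7 had a promoter in the RefSeq table used here (build GRCr8), that is, all but Alox5ap and Alox15. Of these, 4 are shown to set contrasting genes side by side. They are Ptgs1 and Ptgs2 as the pair of cyclooxygenases, Tbxas1 as a gene with higher readings in aged donor hearts and Ltc4s as a gene with lower ones. Each sequence is the 250 bases before the gene start, 5′ to 3′ on the gene's own strand. Capitals mark any match, on either strand, to TATAAA (the TATA box), GGGCGG (a GC box), TGACG (the core of a cAMP response element), TGANTCA (an AP-1 site), GAGGAA (a PU.1 core) or CACGTG (an E-box). Ptgs1 lies on the plus strand at chr3:39981169-39981418, Ptgs2 on the plus strand at chr13:64713813-64714062, Tbxas1 on the plus strand at chr4:68631635-68631884 and Ltc4s on the minus strand at chr10:35063595-35063844.
Ptgs1: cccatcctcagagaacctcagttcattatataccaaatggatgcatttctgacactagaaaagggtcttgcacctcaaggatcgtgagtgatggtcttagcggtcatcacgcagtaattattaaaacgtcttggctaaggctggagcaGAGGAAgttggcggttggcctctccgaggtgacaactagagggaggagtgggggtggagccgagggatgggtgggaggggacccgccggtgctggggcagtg
Ptgs2: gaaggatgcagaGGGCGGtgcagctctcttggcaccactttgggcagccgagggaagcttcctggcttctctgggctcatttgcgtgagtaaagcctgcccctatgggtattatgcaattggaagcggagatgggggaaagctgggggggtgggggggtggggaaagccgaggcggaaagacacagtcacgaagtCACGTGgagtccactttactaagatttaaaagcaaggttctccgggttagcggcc
Tbxas1: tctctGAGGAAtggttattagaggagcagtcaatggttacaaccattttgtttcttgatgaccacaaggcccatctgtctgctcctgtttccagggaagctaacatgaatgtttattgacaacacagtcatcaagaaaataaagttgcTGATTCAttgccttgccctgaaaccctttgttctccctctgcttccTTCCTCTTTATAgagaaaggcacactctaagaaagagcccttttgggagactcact
Ltc4s: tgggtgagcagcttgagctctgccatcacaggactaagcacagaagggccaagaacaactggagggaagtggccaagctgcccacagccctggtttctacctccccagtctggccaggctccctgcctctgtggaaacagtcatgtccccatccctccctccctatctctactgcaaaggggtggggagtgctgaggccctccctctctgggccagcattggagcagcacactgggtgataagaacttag

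The Ptgs2 window held 1 GC box and 1 E-box, the latter starting 55 bases before the gene start, and the Ptgs1 window held neither. Among all 33469 promoters of that length, 30.5% held the GC box and 5.59% the E-box. The Tbxas1 window held 2 PU.1 cores, an AP-1 site and a TATA box on the opposite strand that directly follows the nearer PU.1 core without overlap, and these motifs occurred in 23.3%, 6.34% and 12.9% of all promoters. The Ptgs1 window held 1 PU.1 core, and the Ltc4s window held none of the 6 motifs. Among the windows not shown, those of Ptges, Alox5 and Lta4h also held a GC box, and those of Ptges and Lta4h a PU.1 core. The Tbxas1 and Ltc4s windows each held 0 CpG pairs, against 9 in Ptgs1, 10 in Ptgs2 and a median of 5 over all promoters. These matches describe the letters of the windows, and no binding was measured in these libraries.

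Reads counted on genes ranged from 21457509 to 24560869 per heart. Levels are given as counts per 1e+06 reads (CPM) after TMM scaling (trimmed mean of M values). Both groups were uneven. Young animals 3 and 13 differed by a chi-square of 10.2 per degree of freedom, and young animal 15 differed from them by 496 and 529. Aged animals 4 and 7 differed by 75.0, and aged animal 3 differed from them by 229 and 216. Cardiomyocyte markers summed to 12153 to 99179 CPM in young and 583.9 to 6979 CPM in aged donor hearts, the lowest value being aged animal 3, although all 10 markers were read in every heart of this left ventricular tissue. Not every cardiomyocyte marker followed the sum. The groups overlapped for Tnni3 and for Myh7, which was highest in aged animal 7, at 1843 CPM. The sum of neutrophil markers was higher in aged donor hearts, from 17.0 to 144.5 CPM in young and from 355.6 to 1357 CPM in aged donor hearts. Ptprc (CD45), which marks all leukocytes, was at 24.3, 23.5 and 141.1 CPM in young animals 3, 13 and 15 and at 409.5, 149.5 and 202.0 CPM in aged animals 3, 4 and 7. Young animal 15 thus lay between the other young hearts and the aged ones in these marker sums and in Ptprc.

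The groups were tested with edgeR's quasi-likelihood method on 13784 genes with enough reads, and all 9 genes were among them. The fold limits used here are those the paper gives, and its text does not say whether its p-value was adjusted. A gene is said to have risen or fallen when it met these limits. They are a fold over 1.5 or under 0.67 together with a p-value that, before adjustment, was under 0.05. On this rule 1 gene rose, Alox5ap, 2 fell, Alox15 and Ltc4s, and 6 met neither limit. Of all genes tested, 13.2% rose and 19.0% fell, so that the shares among the 9, 11.1% and 22.2%, were close to those of the whole table. Their median log2 fold change was 0.61, against 0.016 over all genes tested. The count of genes that rose was 5 without young animal 15, and the count that fell was 1 without young animal 3, young animal 13, aged animal 3 or aged animal 7. With library totals in place of TMM the median over all genes moved to 0.46, and 3147 genes rose and 1441 fell, against 1815 and 2621 with TMM, and totals without mitochondrial genes gave 2561 and 1806. After Benjamini-Hochberg adjustment in edgeR 0.0% of genes, that is 0, stayed under 0.05, although 4731 were under 0.05 before adjustment. The adjusted number was 3592 in DESeq2's Wald test and 8416 in limma-voom with quality weights. The adjusted p-values of Alox5ap, Alox15 and Ltc4s were 0.0016, 0.00064 and 0.020 in DESeq2's Wald test. In limma-voom they were 0.00043, 0.00082 and 0.0040. Without young animal 15, 6815 genes passed the adjusted limit in edgeR, among them 7 of the 9, all but Ptgs1 and Alox5. That heart was the young one nearest the aged hearts in the cardiomyocyte, neutrophil and Ptprc measures, and young animals 3 and 13 were much alike. Its removal widens the gap and narrows the young spread, so this fit adds no support of its own. Limma-voom weighted each heart by quality, and the weights were not examined. For all of the 9 genes but Ptgs1, its log2 fold change lay nearer to edgeR without young animal 15 than to edgeR with all hearts. For Tbxas1 these values were 3.14, 3.39 and 1.85. The limma-voom values may therefore not be support apart from that fit. The aged group lay wholly above the young group in 3 of the 9 genes, Ptgs2, Tbxas1 and Alox5ap, and below them in 1, Alox15, where 21.0% and 20.6% of all genes tested did so. With 3 hearts against 3, an exact permutation test cannot give a two-sided p-value below 0.1, and none of the comparisons below can pass that test.

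**Figure D1:**
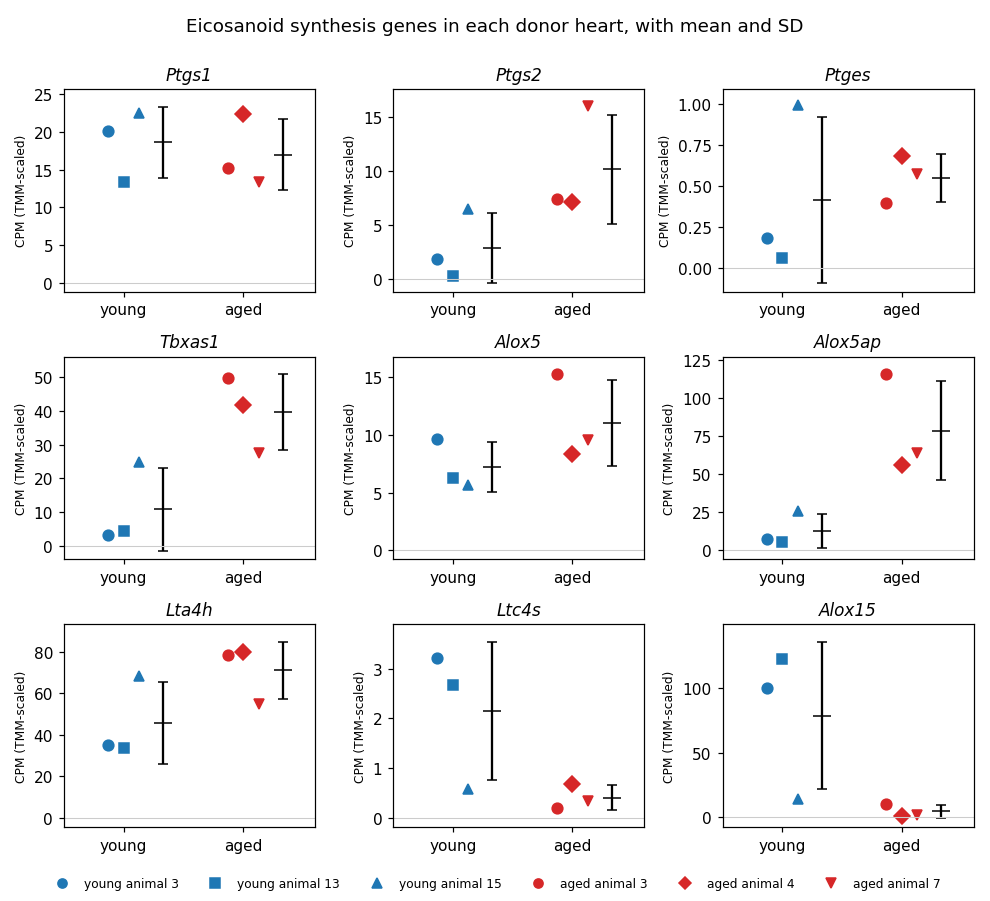
Level of each of the 9 genes in every donor heart, as TMM-scaled CPM on a linear axis that includes 0, with young donor hearts in blue, aged donor hearts in red, 1 symbol per animal, and the group mean and SD (n = 3) in black. Alox5ap, Ptgs2 and Tbxas1 lie higher in every aged heart than in every young heart, Alox15 lies lower, and young animal 15 (blue triangle) is the young heart nearest the aged ones in these 4 genes.

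Neither cyclooxygenase met the limits, and the aged group lay wholly above the young group in Ptgs2 but not in Ptgs1. Ptgs1, the constitutive enzyme, is listed as ENSRNOG00000007415 on chromosome 3 from 15560712 to 15582344, in the coordinates of the deposited table, for which the submitters' processing notes name the build Rnor_6.0. Its level was 20.1, 13.4 and 22.5 CPM in young animals 3, 13 and 15 and 15.2, 22.3 and 13.4 CPM in aged animals 3, 4 and 7. The groups covered the same range, and the difference was -0.14 as log2 fold change, with a standard error (SE) of 0.299 (adjusted p = 0.758 from edgeR with Benjamini-Hochberg adjustment). The sign of that value turned with the processing, as it was 0.26 with library totals in place of TMM and lay between -0.38 and 0.057 when single hearts were left out.

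Ptgs2 (ENSRNOG00000002525, chromosome 13 from 67351087 to 67359335), the inducible cyclooxygenase, was read 31, 4 and 158 times in the young and 225, 188 and 418 times in the aged donor hearts. These reads correspond to 1.88, 0.25 and 6.53 CPM in young animals 3, 13 and 15 and to 7.39, 7.13 and 16.0 CPM in aged animals 3, 4 and 7. Every aged heart was above every young heart, but young animal 15 was only just below aged animals 3 and 4, while aged animal 7 stood well above the rest. The log2 fold change was 1.80 (SE 0.970, unadjusted p = 0.111 and adjusted p = 0.222 from edgeR), which did not meet the limits. Without young animal 15 it was 3.28 and met them, and limma-voom, which gives each heart a quality weight, put it at 3.56.

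The relation of the 2 enzymes within a heart does not depend on how libraries are scaled. Per gene length, Ptgs1 reads exceeded Ptgs2 reads by factors of 16.5, 73.0 and 5.36 in the young animals 3, 13 and 15, while the factors were 3.21, 4.88 and 1.30 for aged animals 3, 4 and 7. Ptgs1 was thus the more abundant transcript in all 6 hearts, and the excess was smaller in each aged heart than in any young heart. The mean log2 ratio of Ptgs2 to Ptgs1 went from -4.22 ± 1.89 to -1.45 ± 0.973 (SD, n = 3 each), a difference of 2.77 (exact permutation test, two-sided, p = 0.1, adjusted p = 0.133 over 4 ratios), and it ran from 1.78 to 3.67 when each heart was left out in turn.

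Among the terminal synthases of the prostaglandin route, Tbxas1 and Ptges were read at very different depth. Tbxas1 (ENSRNOG00000007918, chromosome 4 from 66670618 to 66846805), which makes thromboxane, was at 3.27, 4.51 and 24.9 CPM in young animals 3, 13 and 15 and at 49.6, 41.8 and 27.5 CPM in aged animals 3, 4 and 7. The groups did not overlap, with young animal 15 close to aged animal 7. The mean was 10.9 ± 12.2 CPM in young and 39.6 ± 11.2 CPM in aged donor hearts (SD, n = 3 each), and the log2 fold change of 1.85 (SE 0.794, unadjusted p = 0.0558 and adjusted p = 0.154 from edgeR) fell just short of the limits. Tbxas1 met them in 4 of 13 alternative fits, those with DESeq2's Wald test, limma-voom, no filter on low counts and without young animal 15, the last giving a log2 fold change of 3.39. Markers of platelets and megakaryocytes, which are known to express Tbxas1, summed to 16.6 to 33.3 CPM in young and 63.8 to 158.4 CPM in aged donor hearts. Of the 9 markers 5 were tested and 2 rose, and Gp5 was at 0 reads in every heart. Markers of macrophages and monocytes, which also express it, summed to 369.5 to 2352 CPM and 3685 to 7093 CPM, and the part of either cell type in the Tbxas1 difference was not tested.

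Ptges (ENSRNOG00000006320, chromosome 3 from 9727408 to 9738752), the inducible prostaglandin E synthase, rested on few reads, namely 3, 1 and 24 for the young group and 12, 18 and 15 for the aged group. Young animals 3 and 13 were at or under 3 counts, the smallest number taken here as a signal, while young animal 15 was the highest of the 6 hearts. As log2 fold change the difference was 0.33 (SE 0.868, adjusted p = 0.799 from edgeR with Benjamini-Hochberg adjustment), and it was -0.13 when young animal 13 was left out but 2.14 when young animal 15 was. No direction can be given for Ptges at this depth.

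The only gene of the set that rose was Alox5ap, in the leukotriene route. Alox5ap (ENSRNOG00000000907, chromosome 12 from 6854920 to 6879154), which presents arachidonic acid to the lipoxygenase, was read 128, 85 and 622 times in young and 3524, 1481 and 1662 times in aged donor hearts. Scaled, these are 7.74, 5.40 and 25.7 CPM in young animals 3, 13 and 15 and 115.7, 56.1 and 63.7 CPM in aged animals 3, 4 and 7. Every aged heart was well above every young heart, and aged animal 3 was the highest. The log2 fold change was 2.59 (SE 0.658, unadjusted p = 0.00669 and adjusted p = 0.0916 from edgeR). It met the limits in all 13 alternative fits, with log2 fold changes from 2.21 to 3.62, the highest being without young animal 15. Of the tested neutrophil markers 7 of 9 rose, as did 5 of 10 macrophage and monocyte markers, and their part in the Alox5ap difference was not tested.

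Alox5 (ENSRNOG00000012972, chromosome 4 from 148398892 to 148446303), the lipoxygenase itself, was at 9.68, 6.29 and 5.70 CPM in young animals 3, 13 and 15 and at 15.3, 8.34 and 9.54 CPM in aged animals 3, 4 and 7. The groups overlapped, since young animal 3 was above aged animals 4 and 7. The log2 fold change was 0.61 (SE 0.344, adjusted p = 0.234 from edgeR with Benjamini-Hochberg adjustment), and it met the limits only with library totals in place of TMM (1.11) and with totals that leave out mitochondrial genes (0.93). Per gene length, Alox5ap reads exceeded Alox5 reads by factors of 2.08, 2.23 and 11.7 in the young animals 3, 13 and 15, while the factors were 19.7, 17.5 and 17.3 for aged animals 3, 4 and 7. The aged hearts were nearly alike in this ratio, with a mean log2 ratio of 4.18 ± 0.103 against 1.92 ± 1.41 in young donor hearts (SD, n = 3 each, exact permutation test, two-sided, p = 0.1, adjusted p = 0.133 over 4 ratios).

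The enzymes that share leukotriene A as substrate differed in level. Lta4h (ENSRNOG00000004494, chromosome 7 from 34288365 to 34320235), which makes leukotriene B, was at 35.1, 33.7 and 68.4 CPM in young animals 3, 13 and 15 and at 78.3, 79.7 and 55.1 CPM in aged animals 3, 4 and 7. Young animal 15 was above aged animal 7, so the groups overlapped, and the log2 fold change of 0.64 (SE 0.332, adjusted p = 0.211 from edgeR with Benjamini-Hochberg adjustment) did not meet the limits. It was 1.08 without young animal 15 and 0.90 in limma-voom, and met them in both.

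Ltc4s (ENSRNOG00000003244, chromosome 10 from 35737664 to 35739625), which makes the cysteinyl leukotrienes, was read 53, 42 and 14 times in young and 6, 18 and 9 times in aged donor hearts. It stood at 3.21, 2.67 and 0.58 CPM in young animals 3, 13 and 15 and at 0.20, 0.68 and 0.34 CPM in aged animals 3, 4 and 7. Young animal 15 lay below aged animal 4, and young animals 3 and 13 lay above all others. Ltc4s fell by 2.38 on the log2 scale (SE 0.778, unadjusted p = 0.0206 and adjusted p = 0.103 from edgeR). With single hearts left out, the fall met the limits in 2 of 6 fits and lost them without young animal 3 (-1.97), young animal 13 (-2.19), aged animal 3 (-2.04) or aged animal 7 (-2.27). Markers of mast cells, which are known to make cysteinyl leukotrienes, summed to 46.9 to 65.6 CPM in young and 41.7 to 197.0 CPM in aged donor hearts, with 1 of the 7 tested markers higher and 4 lower, and their part in the fall was not tested.

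Per gene length, Lta4h reads exceeded Ltc4s reads by factors of 2.72, 3.13 and 28.6 in the young animals 3, 13 and 15, while the factors were 92.0, 28.5 and 38.0 for aged animals 3, 4 and 7. Lta4h was the more abundant of the pair in all 6 hearts, and young animal 15 was level with aged animal 4, at log2 ratios of 4.839 and 4.833. The difference in mean log2 ratio was 2.89 (exact permutation test, two-sided, p = 0.2, adjusted p = 0.2 over 4 ratios). With a pseudocount of 2 in place of 0.5 the groups did not overlap (difference 2.76, exact p = 0.1).

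Alox15 (ENSRNOG00000019183, chromosome 10 from 56953691 to 56962161) had the log2 fold change farthest from 0 of the 9 genes. This lipoxygenase had 1647, 1920 and 339 reads in the young animals 3, 13 and 15, as opposed to 322, 35 and 53 reads in aged animals 3, 4 and 7. Scaled, it was at 99.6, 122.1 and 14.0 CPM in the young and at 10.6, 1.33 and 2.03 CPM in the aged donor hearts. Young animals 3 and 13 were far above all other hearts, young animal 15 was just above aged animal 3, and aged animals 4 and 7 were the lowest. Alox15 fell by 4.07 on the log2 scale (SE 1.13, unadjusted p = 0.0100 and adjusted p = 0.0923 from edgeR), from 78.6 ± 57.0 to 4.64 ± 5.15 CPM (SD, n = 3 each), and it met the limits in all 13 alternative fits, with log2 fold changes from -5.53, without aged animal 3, to -3.42, with library totals.

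Cardiomyocyte markers summed to 89763, 99179 and 12153 CPM in young animals 3, 13 and 15. In aged animals 3, 4 and 7 their sums were 583.9, 6979 and 6973 CPM. Of the 10 tested cardiomyocyte markers 5 fell and 0 rose. Red blood cell markers, from a lineage in which Alox15 was first described, summed to 3619, 4385 and 554.2 CPM in young animals 3, 13 and 15 and to 2407, 184.8 and 868.9 CPM in aged animals 3, 4 and 7. The groups overlapped in that sum, and of the 4 tested markers 1 fell, Slc4a1, the anion exchanger of red blood cells (log2 fold change -2.97, unadjusted p = 0.0118 and adjusted p = 0.0927 from edgeR). Eosinophil markers, from another such lineage, summed to at most 1.45 CPM in any heart, and Prg3 and Il5ra were at 0 reads in all 6 hearts. Fibroblast markers summed to 6253 to 7810 CPM in young and 2020 to 4146 CPM in aged donor hearts. The sum of macrophage and monocyte markers went the other way, from 369.5 to 2352 CPM in young and from 3685 to 7093 CPM in aged donor hearts. The part of any of these cell types in the Alox15 difference was not tested. Within the heart, Alox15 reads per gene length exceeded those of Alox5 by factors of 11.9, 22.4 and 2.85 in young animals 3, 13 and 15, and were below them in the aged donor hearts, where Alox5 exceeded Alox15 by factors of 1.24, 5.34 and 4.01. The mean log2 ratio of Alox15 to Alox5 was 3.19 ± 1.53 in young and -1.58 ± 1.12 in aged donor hearts (SD, n = 3 each, exact permutation test, two-sided, p = 0.1, adjusted p = 0.133 over 4 ratios).

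**Figure D2:**
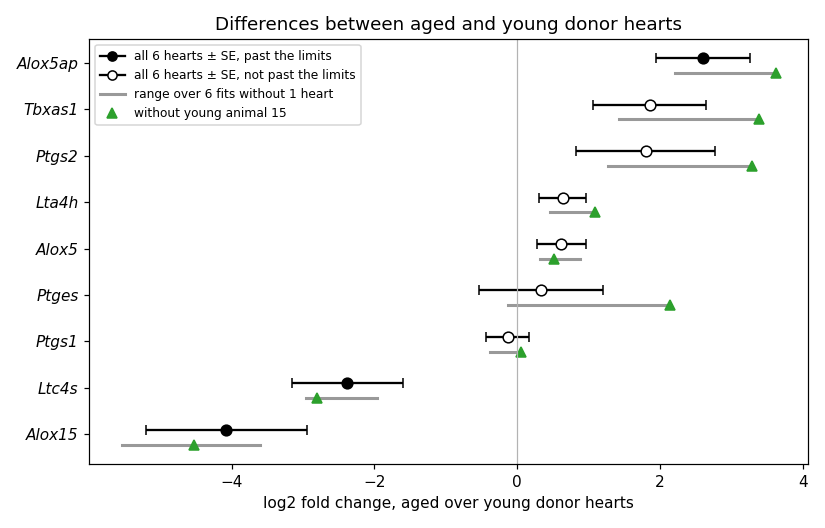
Log2 fold change of each gene, aged over young donor hearts, from edgeR with its standard error (circles, filled where the limits were met), with the range over the 6 fits that each left out 1 heart (grey) and the fit without young animal 15 (green triangle). Only Alox5ap, Ltc4s and Alox15 met the limits with all hearts, and the values of Ptgs2, Tbxas1, Lta4h, Ptges and Alox5ap were highest without young animal 15.

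Levels of different genes can be compared only per gene length, and TMM-scaled CPM per kilobase of gene length (FPKM) were used for that. In young donor hearts Alox15 was the highest, at 35.5 ± 25.8 FPKM, followed by Lta4h at 22.6 ± 9.72 and Alox5ap at 13.1 ± 11.2 FPKM (SD, n = 3 each). Ptgs1 (6.65 ± 1.69), Tbxas1 (5.56 ± 6.21), Ltc4s (4.25 ± 2.74) and Alox5 (2.81 ± 0.835) came next, each overlapping its neighbour in the order. Ptgs2 and Ptges were lowest, at 0.660 ± 0.744 and 0.329 ± 0.403 FPKM, and Ptgs2 was the first gene in the order to lie below its neighbour in all hearts. In aged donor hearts Alox5ap led, at 79.4 ± 32.8 FPKM, and Lta4h (35.2 ± 6.84), Tbxas1 (20.2 ± 5.72) and Ptgs1 (6.05 ± 1.69) each lay below the gene before them without overlap. Alox5 (4.30 ± 1.44), Ptgs2 (2.33 ± 1.16), Alox15 (2.10 ± 2.33), Ltc4s (0.807 ± 0.492) and Ptges (0.439 ± 0.116) followed, and neighbours in this part of the order overlapped. Alox15 thus stood at rank 1 in young and rank 7 in aged donor hearts, and Tbxas1 at rank 5 and rank 3.

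**Figure D3:**
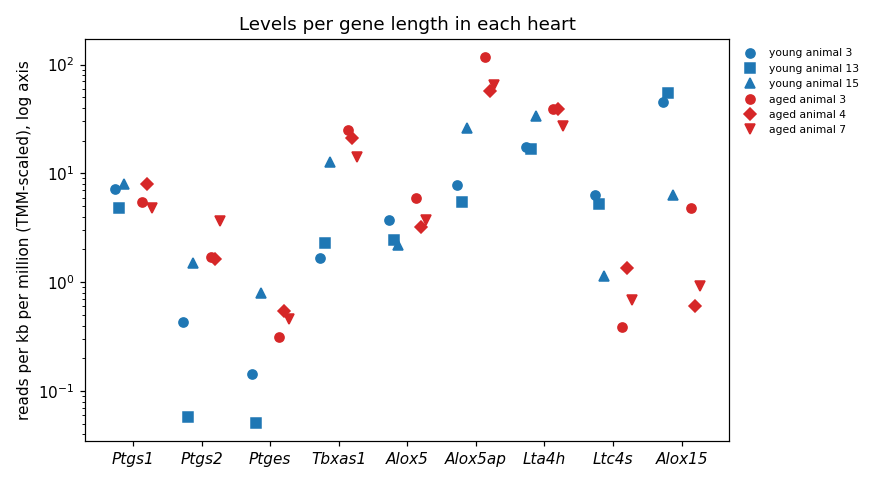
TMM-scaled FPKM of each gene in each heart, on a log axis, with young donor hearts in blue and aged donor hearts in red and 1 symbol per animal. Alox15 leads in young animals 3 and 13, Alox5ap leads in the 3 aged donor hearts, and Ptges is the lowest gene in all 6 hearts.

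To place the genes beside the leukocyte content of each heart, reads were set against those of Ptprc in the same library. Ptprc itself rose by 2.01 on the log2 scale (SE 0.828, unadjusted p = 0.0490 and adjusted p = 0.144 from edgeR). The log2 ratio of Tbxas1 to Ptprc was -2.58 ± 0.264 in young and -2.59 ± 0.652 in aged donor hearts, and that of Alox5ap was -2.07 ± 0.408 and -1.63 ± 0.207 (SD, n = 3 each). For these 2 genes the groups overlapped and the differences were -0.0016 and 0.44 (exact permutation test, two-sided, p = 1 and p = 0.3). Ptgs2 also overlapped, with a difference of 0.21 that was -0.56 without young animal 13 and -0.27 without aged animal 7. A gene without change of its own has a lower ratio where Ptprc is higher, and the share of all genes with such ratios was not computed. Ptgs1 and Alox15 had lower ratios to Ptprc in every aged heart than in any young heart. The mean differences were -2.56 and -6.59 on the log2 scale (exact permutation test, two-sided, p = 0.1 for each, adjusted p = 0.36 over 9 ratios). The log2 fold changes of the genes themselves were -0.14 for Ptgs1, which did not meet the limits, and -4.07 for Alox15, which fell. Alox5, Lta4h, Ltc4s and Ptges had lower mean ratios in aged donor hearts, by 1.82, 1.72, 4.62 and 1.40, with overlap between the groups. Of these genes only Ltc4s itself fell, and the log2 fold changes of Alox5, Lta4h and Ptges were above 0 (0.61, 0.64 and 0.33) without meeting the limits. With single hearts left out, Alox5 ranged between -2.83, when young animal 15 was omitted, and -1.17, when young animal 3 was. The corresponding limits were -2.25 (young animal 15 omitted) and -1.39 (aged animal 3 omitted) for Lta4h, -6.24 (young animal 15 omitted) and -3.75 (young animal 3 omitted) for Ltc4s, and -1.88 (aged animal 4 omitted) and -0.77 (aged animal 3 omitted) for Ptges. With a pseudocount of 2 the groups did not overlap for Ptges (difference -1.79, exact p = 0.1).

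**Figure D4:**
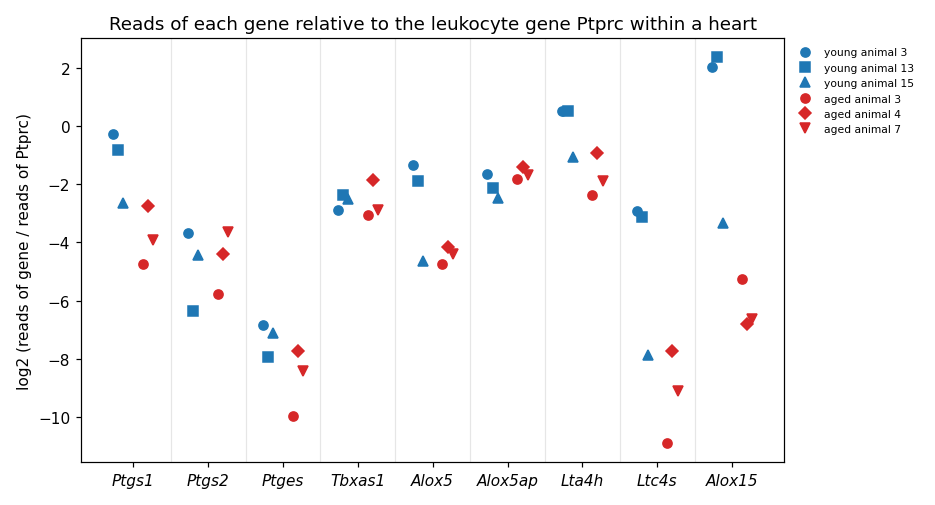
Log2 ratio of the reads of each gene to the reads of the leukocyte gene Ptprc within each heart, with young donor hearts in blue, aged donor hearts in red and 1 symbol per animal. Tbxas1, Alox5ap and Ptgs2 overlap between the groups, whereas Ptgs1 and Alox15 lie lower in all 3 aged donor hearts.

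The genes most like 2 of the set were sought among those with a mean of at least 10 CPM, by Pearson's r of log2 CPM over the 6 hearts. For Alox5ap these were Rasal3, Gmfg and Jdp2 (r = 0.9998, 0.9997 and 0.9992), and for Ptgs2 they were Emc7 (r = 0.993), Brf2 (r = 0.990) and Dimt1 (r = 0.989). Rasal3, Gmfg and Jdp2 each rose, with log2 fold changes of 1.97, 2.15 and 1.41, whereas Emc7, Brf2 and Dimt1 had values of 0.26, 0.62 and 0.51 and did not meet the limits. With 6 hearts and many genes such values are high by selection and describe only how log2 CPM ran together over these hearts.

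The other genes of the pathway were taken from a list of 73 symbols written by role, of which 68 were found in the table and 49 were tested. Of the 49, 13 rose (26.5%) and 15 fell (30.6%), and 21 met neither limit, with a median log2 fold change of -0.31. Over all genes tested 13.2% rose and 19.0% fell, with a median of 0.016. The list was chosen with earlier results of these data known, so the gap between these shares is no test of the pathway. The number that rose was 8 without young animal 3, 6 without young animal 13 and 6 without aged animal 3, and the number that fell was 7 without young animal 3, 7 without young animal 13 and 9 without aged animal 7. Over all genes, 817, 862 and 1048 rose without young animal 3, young animal 13 and aged animal 3, and 1615, 1633 and 1924 fell without young animal 3, young animal 13 and aged animal 7. Of the genes named from this list as risen or fallen with a mean of at least 1 CPM, Pla2g12a, Ptges2, Prxl2b, Ephx2, Zadh2, Cbr3 and Tbxa2r had overlapping groups, and in the others the groups did not overlap. Release and reacylation of arachidonic acid was divided, with 3 of 11 tested genes higher and 3 lower (median log2 fold change -0.32). Pla2g4a, the cytosolic phospholipase that frees arachidonic acid for both routes, rose from 17.8 ± 11.5 to 40.3 ± 9.23 CPM (SD, n = 3 each, log2 fold change 1.17). Acsl4, which activates arachidonic acid for return to membranes, rose by 1.56 on the log2 scale, and the secreted phospholipase Pla2g2d by 0.78. Pla2g5, another secreted phospholipase, fell from 115.0 ± 83.5 to 3.71 ± 2.54 CPM (SD, n = 3 each), and Pla2g4b and Pla2g12a fell by 2.16 and 1.83 on the log2 scale.

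Among the other prostanoid synthases 1 of 5 tested genes rose and 3 fell (median -1.47). Ptges3, a cochaperone that also has prostaglandin E synthase activity, rose by 0.86 on the log2 scale, and Ptges2, a membrane-associated prostaglandin E synthase, fell by 1.17, as did Prxl2b by 1.47. Hpgds, which also fell, had a mean below 1 CPM. Of 6 other lipoxygenases and leukotriene converting enzymes, Aloxe3 (log2 fold change 1.31) and the glutathione transferase Mgst2 (2.04), which can also conjugate leukotriene A, rose, and Mgst3 fell by 2.13 (median 0.62). Mgst2 was at 1.01 ± 0.617 CPM in young and 4.21 ± 1.33 CPM in aged donor hearts (SD, n = 3 each), while Ltc4s was lower in aged donor hearts.

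In the epoxide and omega-hydroxylase arm, 1 of 7 tested genes rose and 4 fell (median -1.29). Cyp4f18, a hydroxylase that inactivates leukotriene B in neutrophils, was read 3, 7 and 70 times in young and 1073, 179 and 512 times in aged donor hearts and rose by 4.07 on the log2 scale. The epoxide hydrolases Ephx1 and Ephx2 fell, with log2 fold changes of -1.81 and -3.52, and the epoxygenase Cyp2j4 fell by 1.29. Cyp2j4 and Cyp4f18 belong to families of similar genes, between which reads may have been split. Of 8 breakdown and transport genes, Cbr3 rose by 0.78, and the prostaglandin reductase Ptgr2 and the related Zadh2 fell by 2.39 and 1.31 (median -0.014). Ptgr2 stood at 211.1 ± 136.4 CPM in young and 40.1 ± 10.0 CPM in aged donor hearts (SD, n = 3 each).

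The receptors through which these mediators act included the largest rise of the list. Ltb4r, the high-affinity leukotriene B receptor of leukocytes, had 2, 1 and 65 reads in the young animals 3, 13 and 15, as opposed to 1023, 676 and 799 reads in aged animals 3, 4 and 7, a log2 fold change of 4.88 (SE 1.18, unadjusted p = 0.00538 and adjusted p = 0.0916 from edgeR). Every aged heart was far above every young heart, and young animals 3 and 13 were under 3 reads. Of the 4 tested leukotriene and lipoxin receptors, 2 rose and 1 fell (median 0.54), and the other gene that rose, Ltb4r2, and the one that fell, Gpr17, had a mean below 1 CPM. Of the 8 tested prostanoid receptors, 3 rose and 1 fell (median 0.60). The prostacyclin receptor Ptgir rose from 6.48 ± 4.92 to 29.3 ± 8.45 CPM (SD, n = 3 each, log2 fold change 2.17), and the prostaglandin E receptors Ptger2 and Ptger4 rose by 2.89 and 0.98 on the log2 scale. The thromboxane receptor Tbxa2r fell by 1.12, with overlap between the groups, opposite in sign to the value of Tbxas1.

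**Figure D5:**
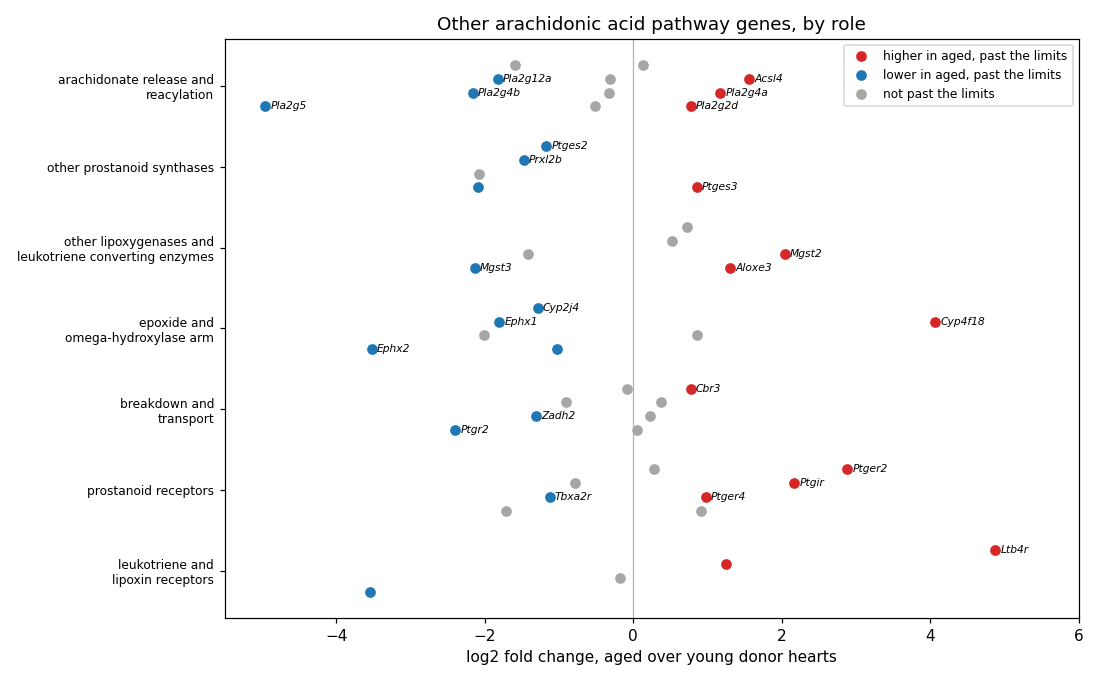
Log2 fold change, aged over young donor hearts, of the 49 tested genes of the pathway list by role, in red where they rose past the limits, in blue where they fell and in grey otherwise, with the named genes of at least 1 CPM labelled. Ltb4r and Cyp4f18 have the largest rises of the 49 genes and Pla2g5 has the largest fall.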

How the data were processed

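RNA-Seq of 6 left ventricles was analysed from the table of gene-level read counts that the authors deposited, in which each heart has its own column. The submitters' processing notes name HISAT2 2.0.5, StringTie 1.3.3b, featureCounts 1.5.0-p3, DESeq2 1.16.1, GATK 3.7 and the build Rnor_6.0, without the role of each. Whether reads were counted by strand is not given in the sources used here, and none of the 9 genes overlaps another gene of the set. The deposited FPKM values were used only to check the gene lengths, and TMM-scaled FPKM was computed from the counts.

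Counts as deposited were filtered with filterByExpr, scaled by TMM and tested with edgeR 4.0.16 (glmQLFit and glmQLFTest, R 4.3.3) with donor group as the only term, fitted over all genes with Benjamini-Hochberg adjustment. The limits were a fold above 1.5 or below 0.67 with unadjusted p under 0.05. DESeq2 1.42.0 and limma-voom (limma 3.58.1) with quality weights were alternatives. The edgeR, DESeq2 and limma-voom fits were tested on simulated counts with less spread between hearts than here. The exact permutation test was checked on random values. Within-heart ratios used counts plus 0.5, and those of 2 genes of the set were divided by gene length and tested by exact permutation (scipy 1.17.1). The 2 planned ratios with Ptgis and its likeness search were not run. Depth was 21457509 to 24560869 counts per heart, and 3 counts were taken as the floor, which covers counting error only. The labels give each heart an animal number, so the p-values measure the spread between hearts.

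Genes named were all members found, Ptprc, the 3 most like genes of at least 10 CPM for Ptgs2 and Alox5ap, and from each pathway list up to 3 largest rises and 3 largest falls past the limits with a mean of at least 1 CPM. Hpgds, Ltb4r2, Gpr17 and Slc4a1 fall outside that rule and were named after their values were seen. The members and lists were chosen with earlier results of these data known. Promoters were taken from RefSeq (GRCr8), whose coordinates were not mixed with those of the table.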

Additional observations from a re-analysis of the deposited data

How the results depend on the processing

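Alox5ap and Alox15 kept their direction and met the limits in all 13 alternatives. Other calls moved, and the cause was not tested except where fewer hearts or fewer genes entered. With library totals in place of TMM, Ptgs1 was at 0.26 and Alox5 at 1.11 (met the limits), and with totals without mitochondrial genes they were at 0.11 and 0.93 (met). Limma-voom put Ptgs2 at 3.56, Ptges at 1.88, Tbxas1 at 3.14 and Lta4h at 0.90, all past the limits, and Tbxas1 was also past them with no filter on low counts (1.86) and in DESeq2 (1.85). Ptges and Ltc4s did not reach 1 CPM in 3 hearts, so that filter gave them no value and left 1 gene that fell.

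When each heart was left out in turn, log2 fold changes ran from -0.38 to 0.057 for Ptgs1, 1.27 to 3.28 for Ptgs2, -0.13 to 2.14 for Ptges, 1.42 to 3.39 for Tbxas1, 0.32 to 0.88 for Alox5, 0.46 to 1.08 for Lta4h and -2.95 to -1.97 for Ltc4s. Ptgs1 was above 0 without young animal 15 (0.057) and without aged animal 7 (0.016), and Ptges below 0 without young animal 3 (-0.0044) and young animal 13 (-0.13). Without young animal 15, Ptgs2 (3.28), Ptges (2.14), Tbxas1 (3.39) and Lta4h (1.08) met the limits. Ltc4s lost them without young animal 3 (-1.97), young animal 13 (-2.19), aged animal 3 (-2.04) or aged animal 7 (-2.27). The ratio of Ptgs2 to Ptprc ran from -0.56 to 0.80, below 0 without young animal 13 (-0.56) and aged animal 7 (-0.27). That of Tbxas1 ran from -0.38 to 0.23, above 0 without young animal 13 (0.10), young animal 15 (0.041), aged animal 3 (0.23) and aged animal 7 (0.14).

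Of the 9 genes, 2 rose with library totals, 2 with totals without mitochondrial genes, 2 with no filter, 2 in DESeq2 and 5 in limma-voom, and leaving out a heart gave 1 to 5 that rose and 1 to 2 that fell. Of the pathway genes, 8 fell with library totals, and leaving out a heart gave 6 to 16 that rose and 7 to 18 that fell. Over all genes, 3147 rose and 1441 fell with library totals, 3689 rose in limma-voom, and leaving out a heart gave 817 to 3802 that rose and 1615 to 3412 that fell, the highest number of rises being without young animal 15. By adjusted p-value in edgeR with all 6 hearts, 0 genes of any of these sets rose or fell, whereas 6815 genes passed the adjusted limit without young animal 15.

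No paired analysis was possible because the groups share 1 replicate number, 3, which names a different animal in each group. Ptges, at 1 to 24 reads a heart, and Ltc4s, at 6 to 53, were limited by depth.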
